A study of Homo sapiens with 6 samples.

Results

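Most proteins of the human ribosome come from a single gene that is expressed in every cell, but a few have a second gene, named with the suffix L or L1, that codes for a related protein. The 10 genes described here form 5 such pairs of a canonical gene and its paralog: RPL22 and RPL22L1, RPL26 and RPL26L1, RPL39 and RPL39L, RPL7 and RPL7L1, and RPS27 and RPS27L. They were chosen by gene symbol with their measured differences between the groups already known, so the comparison of the groups is given for these 10 genes as a description without a test. All 10 are among the 23228 gene symbols of the count tables, and 9 of them were among the 12796 genes with enough counts for the fit. The remaining gene, RPL7, had too few counts.

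The counts come from RNA-seq of MDA-MB-231, a mesenchymal-like human cell line established from a triple negative breast cancer (TNBC). The 3 control libraries were made from cells stably expressing a non-targeted shRNA after puromycin selection, and the 3 PELP1-KD libraries from cells stably expressing a PELP1 shRNA after the same selection. A single shRNA sequence against PELP1 was used, and the labels do not say whether the 3 replicates of a group came from separate cultures, so p-values measure only the spread between these libraries. Poly(A) RNA was sequenced as stranded libraries with single reads of 50 bases, and reads were counted per gene by the authors.

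Ribosomal proteins coat the ribosomal RNA of the 60S and 40S subunits, and their mRNAs begin with a 5′ terminal oligopyrimidine (TOP) tract, a C followed by a run of C and T, through which mTOR controls their translation. RPL22 lies on the surface of the 60S subunit and binds RNA outside the ribosome as well, and its paralog RPL22L1 can take its place and is often raised where RPL22 is lost. RPL26 sits near the exit of the nascent chain, and RPL26L1 codes for a nearly identical protein. RPL39 lines the exit tunnel, and RPL39L is best known from the testis. RPL7 is a 60S protein that contacts the 5S RNA, whereas RPL7L1 resembles an assembly factor of the 60S subunit more than a ribosomal protein. RPS27 is a zinc finger protein of the 40S subunit, and RPS27L is a target of p53.

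The start sites are shown first because they separate the canonical genes from most of the paralogs. The sequences are RefSeq windows on GRCh38.p14 of 10 bases before and 20 bases from the annotated transcription start, written 5′ to 3′ on the strand of the gene, with the unbroken run of C and T from the start in capitals.
RPL22 (chr1:6199576-6199605, minus strand): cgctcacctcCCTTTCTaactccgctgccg
RPL26 (chr17:8383174-8383203, minus strand): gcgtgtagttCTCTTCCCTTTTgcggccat
RPL39 (chrX:119791611-119791640, minus strand): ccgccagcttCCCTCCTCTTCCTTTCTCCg
RPS27 (chr1:153990752-153990781, plus strand): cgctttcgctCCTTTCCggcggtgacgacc
RPL22L1 (chr3:170870176-170870205, minus strand): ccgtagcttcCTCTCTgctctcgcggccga
RPL26L1 (chr5:172958719-172958748, plus strand): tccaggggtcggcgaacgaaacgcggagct
RPL7L1 (chr6:42879606-42879635, plus strand): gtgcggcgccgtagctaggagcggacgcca
RPS27L (chr15:63157458-63157487, minus strand): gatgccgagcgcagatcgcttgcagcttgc
All 4 canonical genes with a window began with a C followed by at least 4 pyrimidines, and of the 4 paralogs with a window only RPL22L1 did. Such a start was found in any window of 48 of the 64 ribosomal protein genes with a window (75.0%). Counted in the same way by gene, 670 tested genes had it and 8263 tested genes with a window did not. Counted by window, it was found in 1429 of all 35116 windows (4.07%). It is a match of letters at an annotated start and not a measured TOP tract. RPL7 and RPL39L had no window.

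Coding sequences bear on how reads of 50 bases are placed between the members of a pair. The most alike pair was RPL39 and RPL39L, in which 148 of 156 coding bases were identical (94.9%), with a longest identical run of 44 bases. The whole coding sequences of this pair, from GENCODE release 29 and 5′ to 3′, have the 8 bases that differ in capitals.
RPL39: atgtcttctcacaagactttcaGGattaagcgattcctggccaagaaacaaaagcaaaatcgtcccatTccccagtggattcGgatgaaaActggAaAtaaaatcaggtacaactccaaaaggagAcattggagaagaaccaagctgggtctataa
RPL39L: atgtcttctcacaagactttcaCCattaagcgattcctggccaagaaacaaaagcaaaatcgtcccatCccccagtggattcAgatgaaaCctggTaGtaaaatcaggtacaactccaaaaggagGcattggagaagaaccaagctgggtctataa
The identical run is shorter than a read, so every read of 50 bases inside the coding sequence covers at least 1 base that tells both genes apart. With up to 2 mismatches allowed, however, 97 of the 707 windows of 50 bases in the RPL39L transcript had a copy in RPL39. RPL26 and RPL26L1 were identical at 369 of 438 coding bases (84.2%), and RPS27 and RPS27L at 199 of 255 (78.0%). The first 60 coding bases of the last pair show differences spread along the sequence, in capitals.
RPS27: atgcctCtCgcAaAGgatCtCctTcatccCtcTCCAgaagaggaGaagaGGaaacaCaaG
RPS27L: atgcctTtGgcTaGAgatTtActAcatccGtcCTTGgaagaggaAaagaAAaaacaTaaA
RPL22 and RPL22L1 were identical at 251 of 369 aligned coding bases (68.0%), and RPL7 and RPL7L1, the least alike, at 54.8% of theirs.

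Reads that fit more than 1 place in the genome were assigned to no gene, and processed pseudogenes of ribosomal proteins make such reads frequent. Of all 50-base windows of the transcript, 66.2% in RPL7 and 66.5% in RPS27 had an exact copy in another annotated gene, against 52.9% in RPL26L1, 41.6% in RPL26 and 36.6% in RPL39. The share was 21.1% in RPL7L1, 14.7% in RPL22, 3.10% in RPS27L, 2.55% in RPL39L and 0.701% in RPL22L1. With up to 2 mismatches allowed, RPS27 shared windows with 20 and RPL7 with 49 other genes, all annotated as pseudogenes, and 206 of the 310 RPS27 windows had a copy in AC005912.1. On that count the share of windows with a copy was 89.6% in RPL26L1, 72.6% in RPL26, 52.8% in RPL39 and 17.4% in RPL39L, against 8.45% in RPL22L1. Copies were searched in annotated transcripts only, so copies elsewhere in the genome were not seen.

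**Figure D1:**
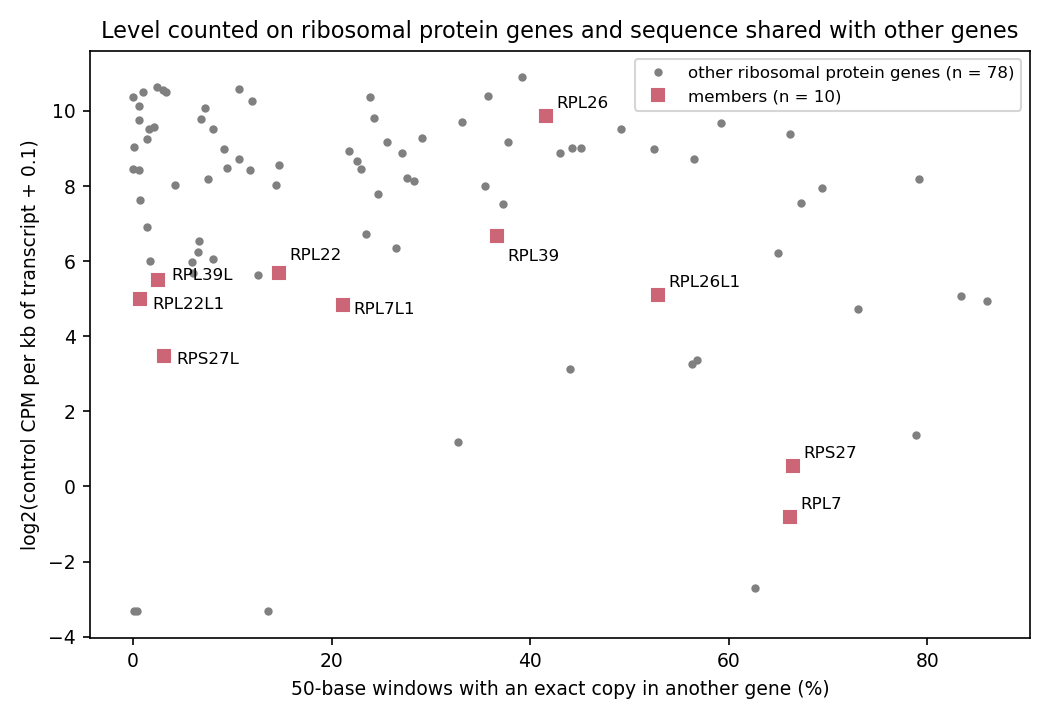
Each point is a ribosomal protein gene or paralog, with the percentage of 50-base windows that had an exact copy in another annotated gene on the horizontal axis and the log2 of mean control CPM per kb of the transcript (with 0.1 added) on the vertical axis. RPL7 and RPS27, at 66.2% and 66.5%, lie far below the other 8 genes of the pairs (squares).

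The libraries held between 17304864 and 23132102 reads on genes. Entries for more than 1 placement made up 32.7% to 32.9% of all counts, on genes or not, in control libraries. In PELP1-KD libraries they made up 32.5% to 32.6%. Whether a read with several placements was entered only once is not given in the sources used here. PELP1, the targeted gene, was counted 968, 1274 and 1069 times in control and 557, 637 and 712 times in PELP1-KD libraries, a log2FC of -0.97 (SE 0.055, adjusted p-value = 1.48e-11 by edgeR). Markers of the cell line were present but differed between the groups, with VIM at a mean of 2220 CPM (the count as a share of the library, scaled by TMM) in control and 1921 in PELP1-KD libraries, CD44 at 1208 and 828, and EGFR at 132 and 110. Of the markers listed as absent or low, ESR1, PGR and CDH1 stayed at or below 0.225 CPM, but EPCAM was at 8.62 to 11.2 and ERBB2 at 109 to 128 CPM. Of 3 fibroblast markers, DCN was at 0 and LUM at no more than 0.256 CPM, and the sum of the 3 was 14.1 to 16.98 CPM in control and 44.9 to 47.1 in PELP1-KD libraries through PDGFRB. The leukocyte marker PTPRC was at 0 in every library. The part of these marker differences in the results that follow was not tested.

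Both genes of the RPL22 pair were lower in PELP1-KD cells, and 3 paralogs of other pairs, RPL26L1, RPL39L and RPL7L1, were higher. By edgeR's quasi-likelihood test with an adjusted p-value below 0.05, 2 of the 9 tested genes were called lower, a direction in which 24.2% of all tested genes were called, and 3 were called higher, where the background was 22.7%. The CPM of the groups did not overlap for the same 2 lower genes, beside 28.0% of all tested genes, and for the same 3 higher genes, beside 27.0%. Since the genes were picked with this contrast known, these counts are a description. RPL26, RPL39, RPL7, RPS27 and RPS27L had groups that overlapped.

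**Figure D2:**
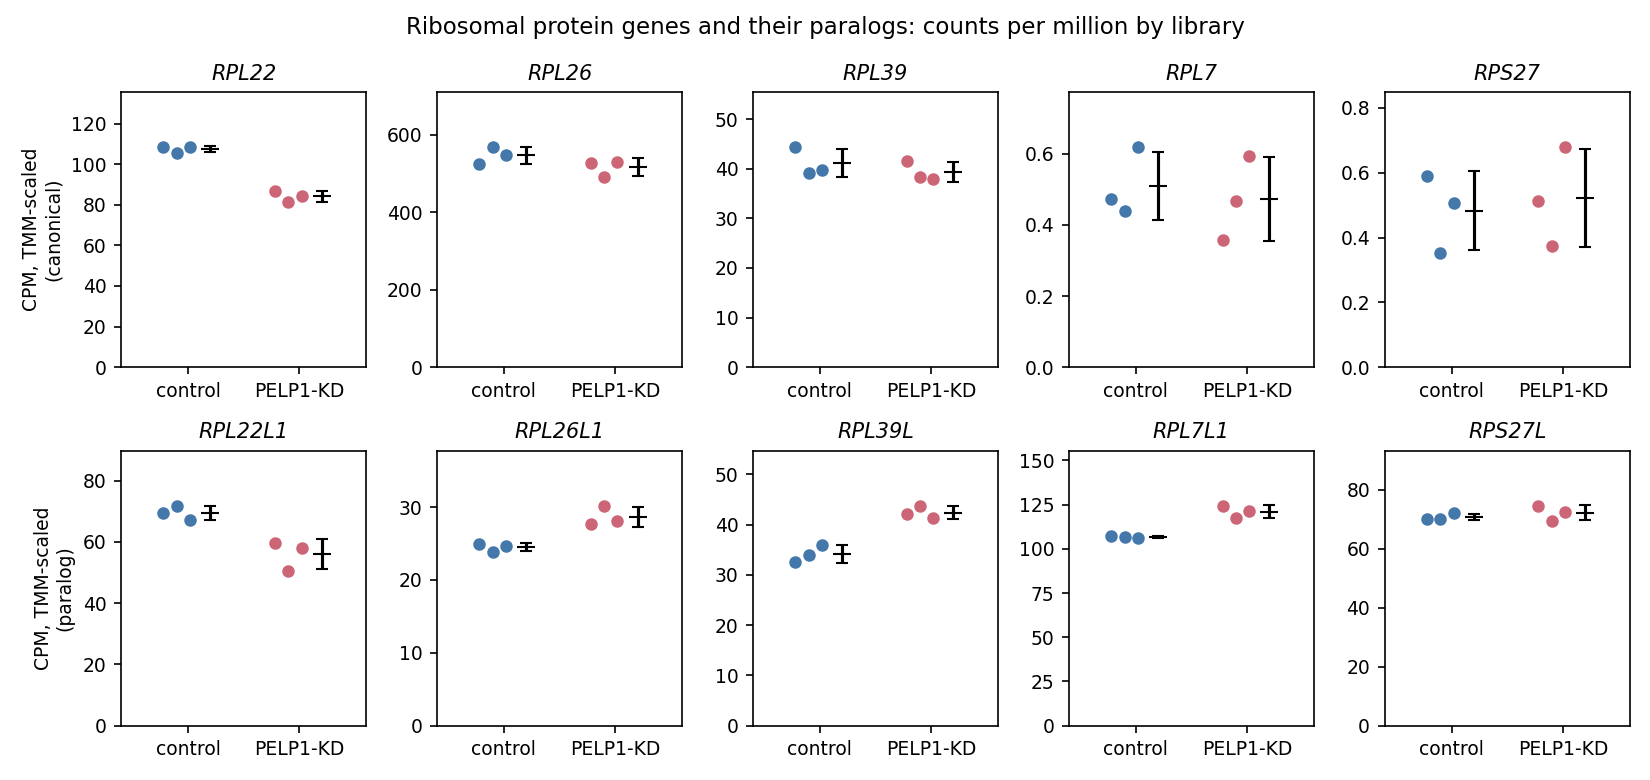
CPM by library for the canonical genes (upper row) and their paralogs (lower row), in 3 control and 3 PELP1-KD libraries, each panel with its own axis from 0, and with the mean and SD of each group beside the points. The groups are apart, with PELP1-KD lower, for RPL22 and RPL22L1, and apart with PELP1-KD higher for RPL26L1, RPL39L and RPL7L1.

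RPL22 (chromosome 1, 6185020 to 6209389 on GRCh38, 4 exons) was counted 1835, 2404 and 1925 times in control and 1690, 1738 and 1984 times in PELP1-KD libraries. Scaled to library size, these were 108, 106 and 108 CPM in control and 86.7, 81.4 and 84.3 CPM in PELP1-KD libraries. The 3 control libraries lay within 3 CPM of each other and every PELP1-KD library lay well under them. The mean went from 108 ± 1.54 (SD, n = 3) to 84.1 ± 2.62 CPM, a difference of -21.8%, with a log2FC of -0.35 (SE 0.042).

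RPL22L1 (chromosome 3, 170864875 to 170870483, 4 exons) was at 69.4, 71.8 and 67.1 CPM in control and at 59.5, 50.5 and 58.0 CPM in PELP1-KD libraries. The groups did not overlap, and PELP1-KD replicate 2 was the lowest of the 6 libraries for RPL22L1 as for RPL22. The mean went from 69.4 ± 2.39 to 56.0 ± 4.84 CPM, a difference of -19.4%, with a log2FC of -0.31 (SE 0.057). Thus the paralog was not higher where the canonical gene was lower. The summed CPM of both genes was 177 ± 1.33 in control and 140 ± 7.37 in PELP1-KD cells, without overlap.

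The balance within the RPL22 pair did not separate the groups. RPL22L1 held 39.0%, 40.5% and 38.2% of the counts of the pair in control and 40.7%, 38.3% and 40.8% in PELP1-KD libraries. The log2 ratio of RPL22L1 to RPL22 counts, which needs no scaling between libraries, was -0.63 ± 0.068 in control and -0.59 ± 0.086 in PELP1-KD cells, a difference of 0.04 (SE 0.064).

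RPL26 (chromosome 17, 8377516 to 8383250) was the most abundant of the 10 genes, at 525, 568 and 548 CPM in control and 528, 491 and 531 CPM in PELP1-KD libraries. The groups overlapped. The mean was 547 ± 21.8 CPM in control and 516 ± 22.3 CPM in PELP1-KD cells, with a log2FC of -0.08 (SE 0.035). RPL26 was not called here, but was called lower with voom, without the filter on low counts, with a replicate block and without control replicate 1.

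RPL26L1 (chromosome 5, 172958729 to 172969771) was at 25.0, 23.8 and 24.7 CPM in control and at 27.7, 30.2 and 28.0 CPM in PELP1-KD libraries. Every PELP1-KD library lay above every control library, with a mean of 28.6 ± 1.37 against 24.5 ± 0.605 CPM, 16.8% more, and a log2FC of 0.23 (SE 0.064). RPL26L1 held only 4.30% ± 0.26 of the counts of its pair in control and 5.27% ± 0.46 in PELP1-KD cells. The log2 ratio of RPL26L1 to RPL26 counts was -4.48 ± 0.092 in control and -4.17 ± 0.13 in PELP1-KD cells, 0.31 higher (SE 0.092), without overlap. The summed CPM of the pair, set mainly by RPL26, overlapped between groups.

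RPL39 (chromosome X, 119786504 to 119791643) was at 44.4, 39.2 and 39.9 CPM in control and at 41.6, 38.3 and 38.0 CPM in PELP1-KD libraries. Control replicate 1 stood above the other libraries, and the groups overlapped, with a log2FC of -0.06 (SE 0.061).

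RPL39L (chromosome 3, 187120948 to 187180908) was at 32.5, 33.9 and 36.0 CPM in control and at 42.1, 43.8 and 41.4 CPM in PELP1-KD libraries. The groups were apart by more than the range within either. The mean went from 34.1 ± 1.74 to 42.4 ± 1.26 CPM, 24.2% more, with a log2FC of 0.31 (SE 0.058). It had the highest log2FC of the 9 tested genes.

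RPL39L counts were the smaller part of the pair in control and the larger part in PELP1-KD libraries. They made up 42.3%, 46.4% and 47.4% of the pair in control and 50.2%, 53.4% and 52.1% in PELP1-KD libraries. The log2 ratio to RPL39 went from -0.27 ± 0.16 to 0.11 ± 0.091, a difference of 0.38 (SE 0.11) or 1.30-fold. It was the largest of the 5 pairs over all 6 libraries, but without control replicate 1 it was 0.29, below RPL26L1/RPL26 and RPL7L1/RPL7 at 0.35, and without PELP1-KD replicate 3 it was 0.37, below RPL7L1/RPL7 at 0.47. The summed CPM of the pair was 75.3 ± 1.96 in control and 81.7 ± 2.20 in PELP1-KD cells, without overlap. These shares compare counts and not molecules, since both transcripts differ in length and in how many of their windows are unique.

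RPL7 was nearly uncounted, with 8, 10 and 11 reads in control and 7, 10 and 14 reads in PELP1-KD libraries, or 29 against 31 in all. RPL7L1 (chromosome 6, 42879618 to 42889925) was at 107, 106 and 106 CPM in control and at 124, 117 and 122 CPM in PELP1-KD libraries. The control libraries of RPL7L1 differed by little more than 1 CPM, and every PELP1-KD library was above them. Its mean went from 107 ± 0.725 to 121 ± 3.61 CPM, 13.6% more, with a log2FC of 0.18 (SE 0.040). The log2 ratio of RPL7L1 to RPL7 was 7.65 ± 0.26 in control and 7.95 ± 0.36 in PELP1-KD cells and overlapped.

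RPS27 (chromosome 1, 153990755 to 153992155) was also nearly uncounted, with 10, 8 and 9 reads in control and 10, 8 and 16 reads in PELP1-KD libraries. Its log2FC of 0.16 had an SE of 0.38, and its sign turned to -0.09 without PELP1-KD replicate 3 and to -0.06 without control replicate 2. At such counts a difference of this size could not be detected, and the reads on RPS27 and RPL7 were not read as the abundance of their mRNAs. RPS27L (chromosome 15, 63125872 to 63158021), a p53 target, was at 70.3, 70.2 and 72.1 CPM in control and at 74.7, 69.6 and 72.5 CPM in PELP1-KD libraries. The groups overlapped, with a log2FC of 0.03 (SE 0.046). The log2 ratio of RPS27L to RPS27 was 7.15 ± 0.37 in control and 7.09 ± 0.38 in PELP1-KD cells.

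**Figure D3:**
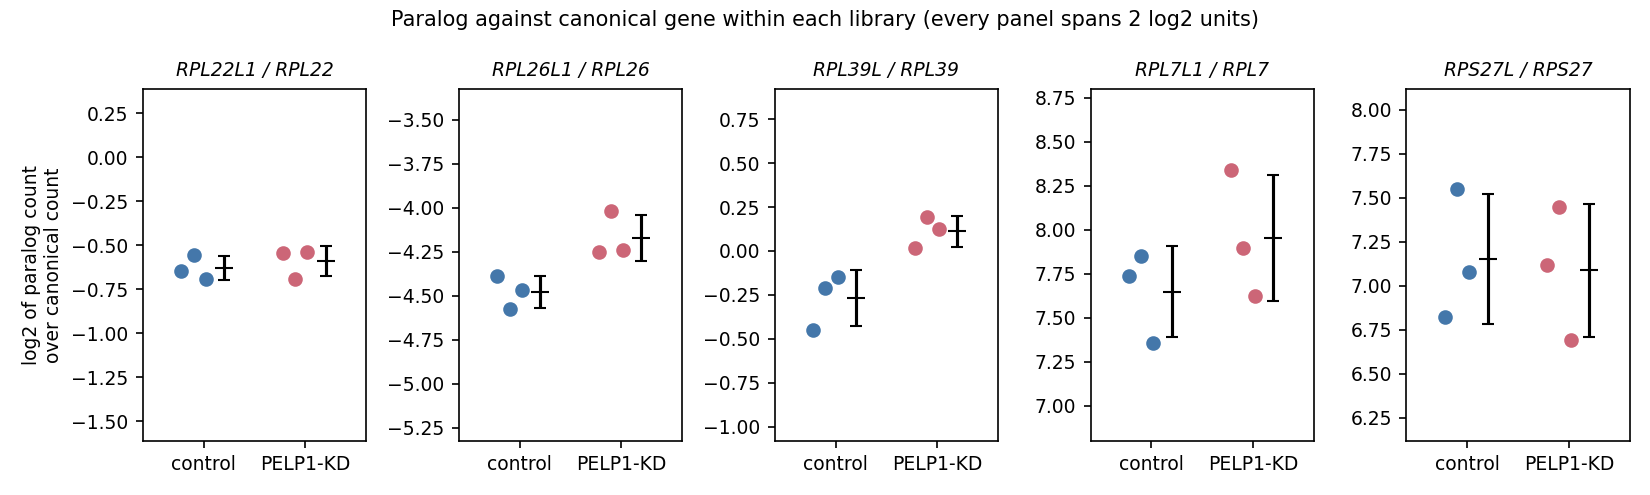
Log2 ratio of paralog to canonical counts in each of 3 control and 3 PELP1-KD libraries for the 5 pairs, with the mean and SD of each group, every panel spanning 2 log2 units. The groups are apart for RPL26L1/RPL26 and RPL39L/RPL39 and overlap for RPL22L1/RPL22, RPL7L1/RPL7 and RPS27L/RPS27.

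Per kb of the union of annotated exons, the members of a pair differed in level in all 6 libraries, but for the RPL22 and RPL39 pairs the direction depended on the length used. RPL26L1 was the lower gene of its pair with every length, with a mean log2 ratio of RPKM of -3.21 ± 0.20 (SD, n = 6) to RPL26, or 9.28-fold lower, and of -4.32 with the coding length. RPL26 was at 218 RPKM and RPL26L1 at 21.1 RPKM in control cells. RPL22L1 was above RPL22 by 0.40 ± 0.073 on this scale, but at -0.55 with the longest transcript, at -0.54 with the coding length and at -0.82 with the number of windows found once. Likewise RPL39L was above RPL39 by 0.94 ± 0.24, but at -0.08 with the coding length and at -1.89 with the windows found once. RPL7L1 was above RPL7 by 6.37 ± 0.33, and by 7.76 with the coding length or 5.18 with the windows found once. RPS27L was above RPS27 by 3.98 ± 0.34, and by 7.12 or 1.41 with those lengths. Both rest on the few reads placed on RPL7 and RPS27. A two-sided exact sign-flip permutation test over the 6 libraries, which takes the length as given, gave p = 0.03125 for RPL26L1 against RPL26, the smallest value it can give (adjusted over 5 pairs, 0.03125). For the other 4 pairs no p is given, since the sign turns with the length or the canonical gene was nearly uncounted.

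Among the other ribosomal protein genes, the share that fell was near that of all tested genes, and a smaller share rose. Of 75 such genes, 73 were tested, 18 fell (24.7%), 2 rose (2.74%) and 53 were not called. Among all tested genes, 24.2% fell and 22.7% rose. The median log2FC of these 73 genes was -0.05, and that of all genes tested was 0.0014. The split depended on the scaling, since with library totals alone 10 fell and 11 rose. It depended on single libraries too, with 11 that fell without PELP1-KD replicate 1 and 28 without control replicate 1. Of 42 tested 60S genes, 11 fell (26.2%) and 2 rose (4.76%), and of 31 tested 40S genes, 7 fell (22.6%) and 0 rose. These lists and those that follow were chosen with earlier results of these data known, so their counts are a description.

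The 60S genes with the lowest p-values were RPL13A, which fell from 217 to 177 CPM (log2FC -0.29, SE 0.033, adjusted p-value = 4.68e-07 by edgeR), RPL15 (-0.25) and RPL27A (-0.19). RPL18 was among those that rose (0.13). The 40S genes with the lowest p-values were RPS3 (-0.16), RPS13 (-0.18) and RPS14 (-0.10), which all fell.

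The 9 genes, chosen with this contrast known, were ranked by log2FC among 82 tested ribosomal protein genes and paralogs. RPL22 was the second lowest and RPL22L1 the third lowest, after RPL36A, whose value of -0.37 had an SE of 0.22. RPL39L was the highest, RPL26L1 stood at rank 80 and RPL7L1 at rank 79. The rank of RPS27, 78, rests on 8 to 16 reads per library and a log2FC with an SE of 0.38. RPL26 stood at rank 26, RPL39 at rank 32 and RPS27L at rank 65. RPL22 and RPL22L1 differed by less than either SE, and the ranks are a description.

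**Figure D4:**
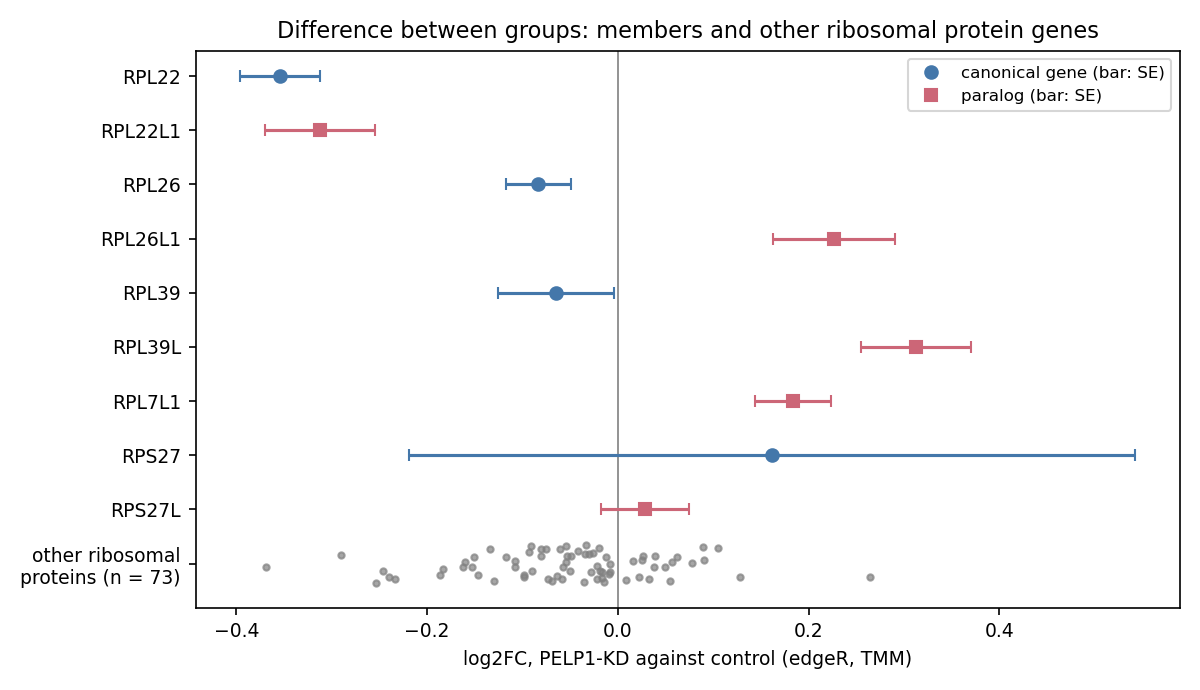
Log2FC of PELP1-KD against control, with bars of 1 SE, for the 9 tested genes of the pairs (circles, canonical genes, and squares, paralogs), above the 73 other tested ribosomal protein genes (grey). RPL22 and RPL22L1 lie at -0.35 and -0.31, and RPL39L at 0.31 lies to the right of every grey point.

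Across 80 ribosomal protein genes, the level per kb was lower where more windows had a copy elsewhere (Spearman's rho -0.35 across genes, which share libraries and base composition). Across the 77 tested genes, the log2FC had a rho of -0.21 with the same share. Genes with a low count beside many copies included RPL7, RPS27 and RPL21, and 4 of the 80 genes stayed below 1 CPM in every library. The part that unplaced reads have in the differences between groups was not tested.

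Of the other ribosomal protein paralogs, RPL36AL did not pass the test (log2FC 0.02, adjusted p-value = 0.622 by edgeR), RPL3L was at 0 in every library and RPL10L had 3 reads in a single PELP1-KD library. Of 3 assembly factors that resemble ribosomal proteins, as RPL7L1 does, RSL24D1, a 60S assembly factor, fell from 97.6 to 80.5 CPM (log2FC -0.28, adjusted p-value = 6.17e-05 by edgeR). MRTO4, related to the stalk protein, and RSL1D1 were not called, at -0.06 and 0.02. RPL7L1 thus had the opposite sign to RSL24D1.

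Other translation genes known for a TOP start mostly fell. Of 16 genes tested, 12 fell (75.0%) and 0 rose, beside 24.2% and 22.7% of all tested genes. Their median log2FC was -0.14, beside 0.0014 for all genes tested. The list was chosen with earlier results of these data known, so this is a description. PABPC1, the poly(A) binding protein, fell by 0.32 on the log2 scale (adjusted p-value = 1.12e-08 by edgeR), NPM1, a nucleolar chaperone, by 0.29 and TPT1 by 0.21. In contrast, the median was -0.03 over all 670 tested genes whose annotated start had the C and pyrimidine run and -0.0015 over the 8263 tested genes with a window but without it.

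RPL22, RPL26 and RPS27L have each been tied to the p53 pathway, so genes of that pathway were listed. Of 28 tested p53 targets, 8 fell (28.6%) and 7 rose (25.0%), near the 24.2% and 22.7% of all tested genes, with a median of -0.0005. AEN, an exonuclease, fell by 0.64, PLK2 by 0.32 and MDM2, a ubiquitin ligase, by 0.32 on the log2 scale. CDKN1A, which codes for p21, rose from 67.7 to 110 CPM (log2FC 0.69), POLH, a translesion polymerase, rose by 0.32 and TNFRSF10B, a death receptor, by 0.26. The remaining 13 tested targets were not called, and neither was RPS27L, at 0.03.

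In the 5S particle that binds MDM2, RPL11 fell by 0.13 on the log2 scale (adjusted p-value = 4.39e-04 by edgeR) and RPL5 was not called (-0.05). RNAs linked to RPL22 in earlier work include MDM4, a partner of MDM2 whose splicing RPL22 affects, SMAD2, LIN28B and the telomerase RNA TERC. MDM4 and SMAD2 fell, with log2FC of -0.25 (adjusted p-value = 0.0101 by edgeR) and -0.23 (0.00263). LIN28B had 0 reads in every library. TERC, which lacks a poly(A) tail, had 2, 8 and 5 reads in control and 15, 1 and 5 reads in PELP1-KD libraries and was not tested. Gene counts do not show splicing, so the isoforms of MDM4, SMAD2 and RPL22L1 were not analysed here.

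PELP1 works in 60S assembly within a complex with TEX10, WDR18, LAS1L, NOL9, SENP3 and MDN1. Of these 6 partners, NOL9, a polynucleotide kinase, and MDN1, an ATPase that remodels the pre-60S particle, rose by 0.19 and 0.17 on the log2 scale (adjusted p-value = 0.0286 and 0.0192 by edgeR). TEX10 (-0.09), WDR18 (0.13), LAS1L (0.06) and SENP3 (-0.09) were not called. The log2FC of RPL7L1, 0.18, lay between those of NOL9 and MDN1.

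The genes nearest to RPL22 across the 6 libraries, by Euclidean distance of centred log2 CPM, were YWHAZ (0.046), YEATS4 (0.046), SEL1L (0.048), PATL1 (0.049) and GPR126 (0.052). RPL22L1 was the 631st nearest of 12795 genes, at a distance of 0.164. Those nearest to RPL22L1 were TCEAL8 (0.077), MBLAC2 (0.088), VBP1 (0.094), MNAT1 (0.098) and HADHB (0.099), and RPL22 was the 192nd nearest. The log2FC of the named neighbours lay between -0.36 (YWHAZ) and -0.29 (MBLAC2). These distances include the difference between the groups, with which both genes were chosen, so the order of genes is a description.

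In bulk RNA, a lower CPM can reflect less RNA of the gene per cell or fewer cells that express it, and these cannot be told apart. Leaving out each replicate in turn kept the log2FC of RPL22 between -0.37 and -0.33, of RPL22L1 between -0.35 and -0.24, of RPL26L1 between 0.19 and 0.25, of RPL39L between 0.28 and 0.35 and of RPL7L1 between 0.17 and 0.21.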

How the data were processed

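RNA-seq was performed on 3 control and 3 PELP1-KD samples of MDA-MB-231. The authors deposited raw counts, whole numbers of reads per gene symbol without normalization, and per the labels their notes name bcl2fastq, TopHat2, SAMtools, HTSeq and build hg19, with no versions. Whether counting used strand, and which annotation, is not given in the sources used here. Libraries held 17304864 to 23132102 reads on genes, and counting intervals were not drawn. The 5 closing rows of each table (41.0% to 41.4% of all its counts) name no gene and were left out.

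The members and all lists were chosen with earlier results of these data known. Counts were filtered by filterByExpr (minimum 10), scaled by TMM and tested by the quasi-likelihood test of edgeR 4.0.16 in R 4.3.3, adjusted by Benjamini-Hochberg over 12796 genes (common BCV 3.52%). Replicate libraries differed by more than sampling noise (chi-square per degree of freedom 1.47 to 4.11). Paralog ratios used a pseudocount of 0.5. RPKM used exon lengths of GENCODE release 29 on GRCh38, in which all 10 genes matched, and 50-base windows were searched in its transcripts with up to 2 mismatches. Coordinates come from these references and not from the authors' build. Start windows came from RefSeq (GRCh38.p14), in which 8 of the 10 genes matched, and coding sequences were aligned with Biopython 1.88. Only the edgeR fit was tried on simulated counts with known fold changes, and the other steps were not.

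Named genes are the 10 members, PELP1, up to 3 genes with the lowest p-value per direction in each list (every gene of lists of up to 7), and the 5 nearest to RPL22 and to RPL22L1. RPL36A and RPL21 were named after their values were seen, as were AC005912.1 and the medians by start site. Alternatives were library totals or RLE in place of TMM, limma 3.58.1 with voom, DESeq2 1.42.0, a stricter filter (at least 10 counts in every library) or none, a replicate block, other pseudocounts and lengths, and leaving out each replicate. Proteomics was not analysed here, and some genes that the rule names are not reported here.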

Additional observations from a re-analysis of the deposited data

How the results depend on the processing

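Between 8 and 10 of the genes were tested, depending on the alternative. Of these, 2 to 3 were called lower, the third being RPL26, and 3 higher under every alternative tried. In the main fit, 24.2% of all tested genes were called lower and 22.7% higher, and these shares were not taken for the alternatives. The genes were chosen with this contrast known and the libraries are the same, so these counts are a description. With library totals alone, RPL22 was at -0.30, RPL7L1 at 0.23 and RPS27L at 0.08, and of the other ribosomal proteins 10 fell and 11 rose, against 18 and 2. Without a filter 5 rose. With the replicate number as a replicate block, 19 fell and 5 rose, and the numbers did not pair the samples (correlations 0.0388, 0.0653 and -0.0784). Leaving out each replicate in turn gave 11 (without PELP1-KD replicate 1) to 28 (without control replicate 1) that fell and 1 (without control replicate 1 or PELP1-KD replicate 2) to 6 (without control replicate 3) that rose, and 5 (without PELP1-KD replicate 3) to 8 in place of 9 genes of the other lists that rose. The log2FC of RPS27 ranged from -0.094 (without PELP1-KD replicate 3) to 0.35, and the difference of the RPS27L/RPS27 log2 ratio, -0.06, from -0.25 to 0.14.

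The level of RPL22L1 against RPL22 was 0.40 in log2 and became -0.55 with the longest transcript, -0.54 with the coding length and -0.82 with windows found once. That of RPL39L against RPL39 went from 0.94 to -0.079 and -1.89 with the last 2. With 1 library left out these levels were 0.38 to 0.41 and 0.88 to 1.01, and -3.27 to -3.16 for RPL26L1, 6.27 to 6.46 for RPL7L1 and 3.89 to 4.06 for RPS27L. With 5 libraries the smallest p is 0.0625. The cause of the changes with scaling or with 1 library left out was not tested. RPL7 had too few reads for the filter but entered the fits without it and 5 of the 6 with a replicate left out, and RPS27 had too few for the stricter filter.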
